A study of Bos taurus with 17 samples.

Results

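The genes described here encode the proteasome, the multi-subunit protease that degrades ubiquitin-tagged proteins, in bovine morulae. They were taken as every row of the deposited expression table whose symbol begins with PSM, a letter from A to G and a digit, which gave 49 of 17167 genes. Of these, 47 encode subunits, regulators or assembly chaperones of the proteasome, and the other 2, PSMC3IP and PSME3IP1, match by name only. The study sequenced messenger RNA from pools of 10 preimplantation embryos grown in vitro to the morula, the stage at which the cells of the early embryo compact. All pools were of Bos taurus, 9 of them controls and 8 from culture with added recombinant WNT5A, a secreted signalling protein whose dose and time of addition the labels do not give. Nothing in the labels tells if pools were separate cultures or fertilisation rounds, so p-values measure only the spread between these pools, which may be technical. Levels are the authors' RPKM, reads scaled by exon length, by library size and by a further library factor. Genes are set side by side on this scale, and differences between genes in how well reads are captured or mapped were not checked.

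The proteasome has a barrel-shaped core of stacked rings. Outer alpha rings gate the entrance, and inner beta rings carry the proteolytic sites. A cap at the end of the barrel recognises ubiquitin chains in its lid and base, and a ring of ATPases in the base unfolds the substrate and feeds it into the core. Other activators can take the place of the cap, dedicated chaperones assemble the particle, and immune cells or cells exposed to interferon exchange the catalytic beta subunits for inducible ones. In early mammalian embryos the ubiquitin-proteasome system is known for clearing proteins that the egg laid down.

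Some libraries stood apart. WNT5A libraries 4, 12 and 14 held 34.0 to 52.4 M reads (M, mega), as recovered from the RPKM values, against 125 to 200 M in the other 14. Control libraries 2, 3 and 6 had reads for 10055 to 11268 genes, against 13129 to 16589 in the others. Of the 8 markers of the embryo, POU5F1 was the highest, at 1125 to 2360 RPKM. NANOG was the lowest by median, at 0 to 15.4 RPKM in controls and 3.04 to 17.6 in WNT5A pools. The 7 cumulus and granulosa markers in the table summed to 0.374 to 13.3 RPKM in controls and 0.889 to 6.03 in WNT5A pools. The 7 blood and immune markers summed to 3.602 to 19.9 and 4.94 to 8.86 RPKM. HBA gave the most by median, at 6.59 RPKM in controls and 4.88 in WNT5A pools, and was above 0 in every library. AIF1 had a median of 2.78 RPKM in controls, where it reached 7.47, and of 0.435 in WNT5A pools. CD14, CD3E, CD74, TYROBP and LAPTM5 were each listed at 0 in the median control. The 5 germ cell markers in the table, TNP1, DAZL, DDX4, SYCP3 and TEX14, summed to 23.6 to 55.0 and 23.1 to 75.5 RPKM. Of this, SYCP3 alone gave 17.6 to 74.2. TNP1 had medians of 4.03 RPKM in controls and 0.422 in WNT5A pools.

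Core genes were among the abundant messages of the morula. Of the 49 genes, 31 averaged at least 100 RPKM over the 17 libraries, a level reached by 7.28% of all genes in the table, and 45 averaged at least 10 RPKM, reached by 34.0%. The 47 proteasome genes together took 1.12% to 1.52% of the reads in control pools and 1.01% to 1.41% in WNT5A pools. These are pools of whole embryos, in which fewer cells of a type and less RNA per cell cannot be told apart.

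In the alpha ring, PSMA7 stood above the other 6 subunits. It averaged 755 RPKM over the 17 libraries, was the most abundant of the 49 genes in 17 of 17 libraries and ranked 102 among all genes by mean level. Control pools ranged from 450 RPKM in library 9 to 1261 in library 6, with a median of 829. WNT5A pools ranged from 567 to 880 RPKM with a median of 688, inside the control range. The other alpha genes averaged 185 RPKM (PSMA4), 190 (PSMA2), 273 (PSMA3), 301 (PSMA5), 329 (PSMA6) and 349 (PSMA1). Within a library the highest alpha gene was 3.34 to 5.75 times the lowest, although the assembled ring holds its 7 subunits in equal numbers.

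The beta ring was higher and more even than the alpha ring. The median of its 7 genes exceeded that of the 7 alpha genes in 17 of 17 libraries, and its highest gene was 2.03 to 3.18 times its lowest within a library. The 3 subunits with proteolytic activity kept one order in 17 of 17 libraries. PSMB6, the caspase-like subunit, averaged 537 RPKM. PSMB5, the chymotrypsin-like subunit, averaged 351 RPKM, and PSMB7, the trypsin-like subunit, averaged 250 RPKM and was the lowest of the ring in every library. Among the 4 subunits without a proteolytic site, PSMB1 averaged 583 RPKM, PSMB3 495, PSMB2 459 and PSMB4 347. PSMB1 exceeded PSMB6 in 12 of 17 libraries, so these neighbours in the order were not separated by their spread. Library 6 was the highest control for PSMB1 (1007 RPKM), PSMB3 (979), PSMB6 (731), PSMB4 (548), PSMB5 (480) and PSMB7 (405). For PSMB2 it was library 2 (643 RPKM). Library 9 was the lowest control for all 7 beta genes. In WNT5A pools PSMB1 lay between 432 and 693 RPKM, PSMB3 between 282 and 583, PSMB2 between 341 and 556, PSMB5 between 221 and 413 and PSMB7 between 171 and 272. Each overlapped its controls, and library 10 was the highest WNT5A pool for 6 of the 7.

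**Figure D1:**
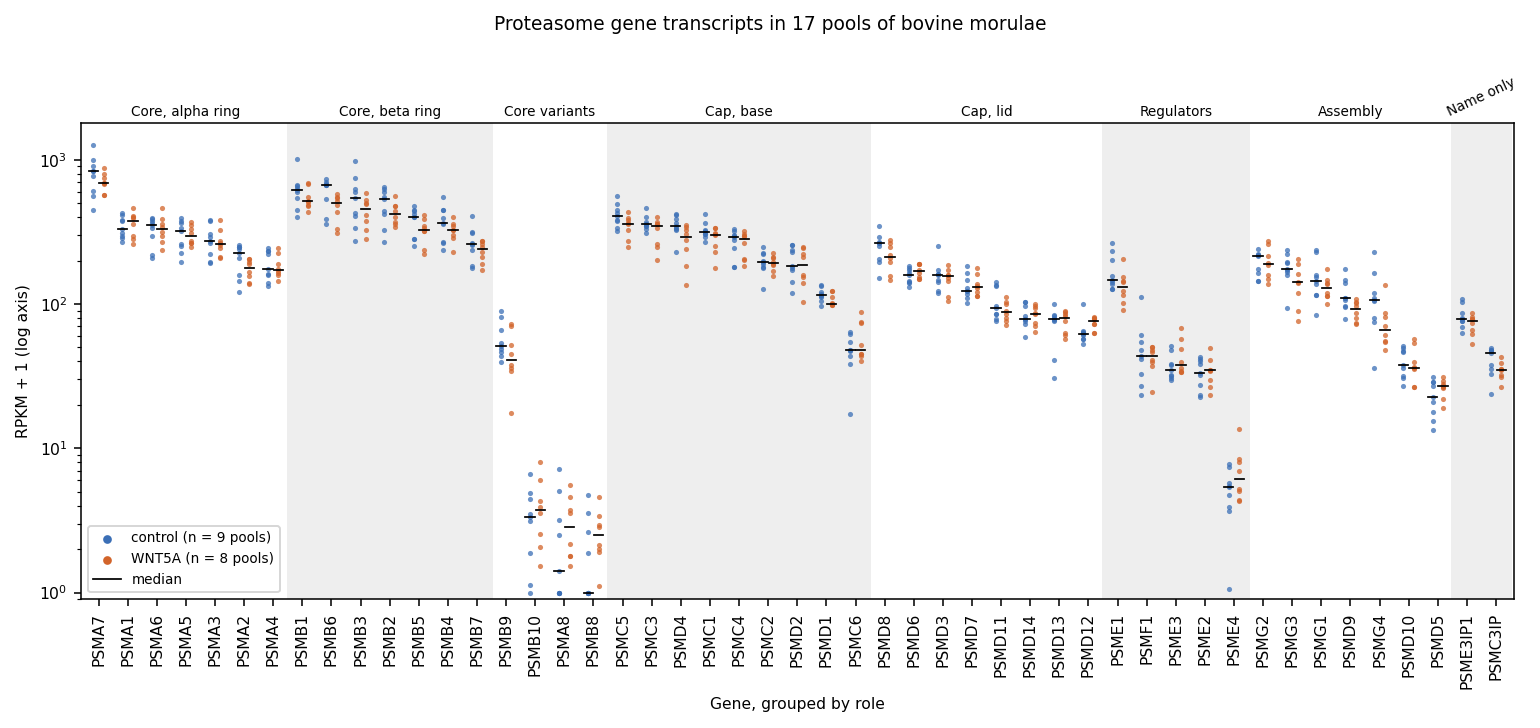
RPKM + 1 (log axis) of each of the 49 genes, grouped by role, with a point for each of 9 control and 8 WNT5A pools and a bar at each median. Core genes sit between 121 and 1261 RPKM, and PSMB8, PSMB10, PSMA8 and PSME4 lie at the bottom, the first 3 with libraries at 0 RPKM.

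Inducible and germ-cell forms of the core subunits were all lower than their constitutive counterparts, PSMB9 the least so. PSMB9, the immune counterpart of PSMB6, lay between 38.5 and 88.3 RPKM in controls with a median of 49.97, and between 16.6 and 71.3 RPKM in WNT5A pools with a median of 40.2. It had reads in every library and exceeded PSMB8 and PSMB10 in 17 of 17. Library 4 was the lowest WNT5A pool and library 2 the highest control, and the groups overlapped.

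PSMB8, the immune counterpart of PSMB5, had reads in 4 of 9 controls and 8 of 8 WNT5A pools. The controls with reads were libraries 1, 4, 5 and 13, at 1.63, 3.77, 2.53 and 0.884 RPKM. In the 5 controls at 0, the level that 3 reads would give was 0.0173 to 0.0219 RPKM. WNT5A pools ranged from 0.107 to 3.61 RPKM with a median of 1.502, all inside the control range. Of the controls at 0, libraries 2, 3 and 6 are those with few genes detected, and the part of that in the zeros was not tested.

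PSMB10, the immune counterpart of PSMB7, ranged from 0 to 5.65 RPKM in controls with a median of 2.34, and from 0.537 to 6.99 in WNT5A pools with a median of 2.75. It was at 0 in control library 3 alone, and exceeded PSMB8 in 13 of 17 libraries. PSMA8, a form of PSMA7 known from male germ cells in the mouse, was at 0 in controls 1, 3, 6 and 13 and reached 6.14 RPKM in control 10. WNT5A pools lay between 0.521 and 4.54 RPKM with a median of 1.87, again within the control range.

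Genes that interferon induces along with the immune subunits were measured beside them, and a list of 12 summed to 58.5 to 139 RPKM in controls and 94.1 to 133 in WNT5A pools. B2M, the light chain of class I molecules, gave the most, with medians of 26.4 and 44.3 RPKM, followed by the transcription factor IRF1 with medians of 19.97 and 19.4. TAP1, the peptide transporter gene that neighbours PSMB8 and PSMB9 in mammalian genomes, ranged from 1.24 to 22.9 RPKM in controls and 5.55 to 17.8 in WNT5A pools, below PSMB9 in 17 of 17 libraries. MX1, MX2, ISG15 and NLRC5 were the lowest of the list and reached at most 0.943, 0.174, 1.01 and 0.419 RPKM. PSMB9 was the one immune subunit above 10 RPKM, beside a list whose own members ran from near 0 to 63.4 RPKM.

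**Figure D2:**
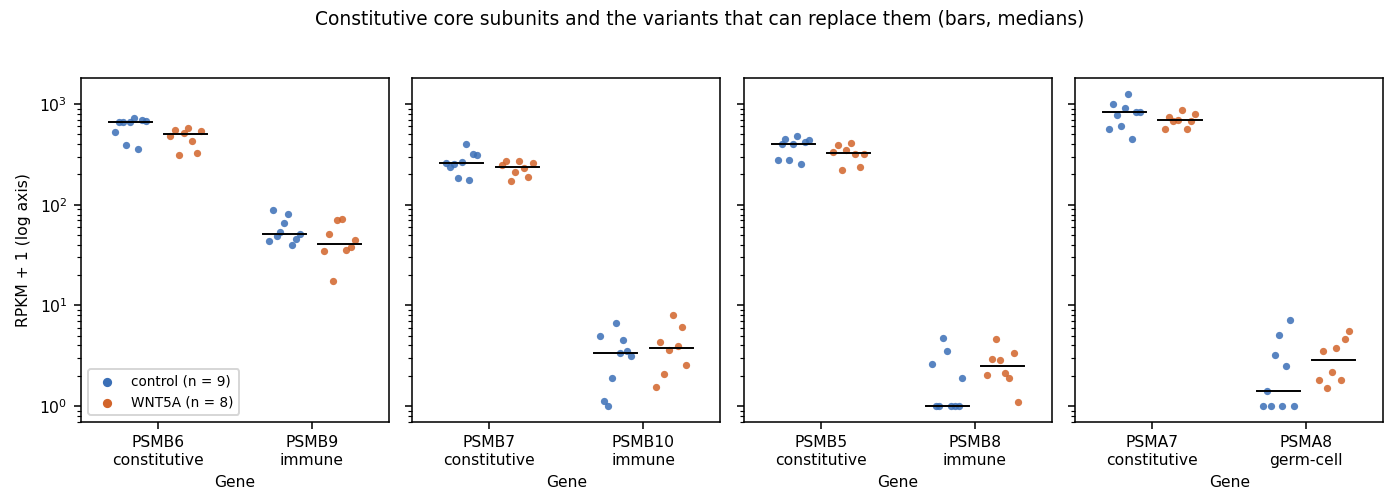
RPKM + 1 (log axis) of the immune and germ-cell variants beside the constitutive subunits they can replace, with a point for each of 9 control and 8 WNT5A pools and a bar at each median. PSMB9 lies between 16.6 and 88.3 RPKM, whereas PSMB8, PSMB10 and PSMA8 stay at or below 6.99.

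Ratios within a library put each variant against its constitutive partner, on a scale that the library's total does not touch. PSMB9 was 6.47% to 13.6% of PSMB6 in controls (median 9.70%) and 5.31% to 13.4% in WNT5A pools (median 8.68%), a log2 difference of -0.06 (two-sided exact permutation test, adjusted p = 0.758 over 6 ratios). PSMB8 reached at most 1.35% of PSMB5 in controls and 1.63% in WNT5A pools, and PSMB10 at most 2.15% and 2.65% of PSMB7. With 0.1 RPKM added to each gene, the log2 difference was 2.04 for PSMB8 over PSMB5 and 0.94 for PSMB10 over PSMB7, and neither passed (exact permutation, adjusted p = 0.183 and 0.397). PSMA8 over PSMA7 differed by 1.80 on the log2 scale, from a median of 0.0415% in controls to 0.241% in WNT5A pools, and did not pass either (exact permutation, adjusted p = 0.183). Because some controls are at 0, these sizes follow the value added: with 0.01 and 1 RPKM they were 3.74 and 0.79 for PSMB8, 3.23 and 0.66 for PSMA8 and 1.36 and 0.50 for PSMB10. Without control libraries 2, 3 and 6 the differences were 0.94 for PSMB8, 0.77 for PSMA8 and -0.10 for PSMB10.

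In the base of the cap, 5 of the 6 ATPases were abundant and the other was not. PSMC5 averaged 383 RPKM, PSMC3 342, PSMC1 303, PSMC4 264 and PSMC2 193. PSMC6 averaged 51.0 RPKM and was the lowest ATPase in 17 of 17 libraries, so that the highest ATPase was 2.996 to 30.1 times the lowest, with a median of 8.17. The 30.1 came from control library 6, where PSMC6 was 16.3 RPKM against 37.5 to 63.4 in the other controls. In WNT5A libraries 4, 12 and 14 PSMC6 stood at 86.4, 74.3 and 72.6 RPKM, above every other library of either group. Among the base subunits that are not ATPases, PSMD4, a ubiquitin receptor, averaged 312 RPKM, and the scaffolds PSMD2 and PSMD1 averaged 190 and 111 RPKM.

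The lid was lower than the ATPase ring in 17 of 17 libraries when medians were compared. PSMD8 was its highest gene at a mean of 232 RPKM, followed by PSMD6 at 162, PSMD3 at 153 and PSMD7 at 133. PSMD11 averaged 95.6 RPKM, PSMD13 72.7 and PSMD12 68.0. PSMD14, the lid enzyme that cuts the ubiquitin chain from the substrate, averaged 82.7 RPKM and varied little, from 57.9 to 103 RPKM over all 17 libraries. SEM1, a small lid subunit outside the PSM names, was at 130 to 354 RPKM in controls and 50.9 to 292 in WNT5A pools.

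Core and cap messages did not keep one proportion. The median of the 14 constitutive core genes was 244 to 445 RPKM in controls and 281 to 420 in WNT5A pools. The median of the 17 cap genes had a narrower range, from 133 to 181 and from 135 to 187 RPKM. Core over cap was 1.53 in control library 1 and 3.13 in control library 3, and it ran from 1.82 to 2.48 in WNT5A pools, inside that range. Core genes stood above or below their means together in several libraries. All 14 were above their own 17-library mean in control libraries 6 and 13 and in WNT5A library 10. In control libraries 4 and 9 and in WNT5A library 11, 0 of 14 were. The same was not counted over all genes. RPKM times length in kilobases summed highest in control library 6, at 1.145 M, and lowest in control library 9, at 0.946 M. The part of this library scaling in the counts was not tested.

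**Figure D3:**
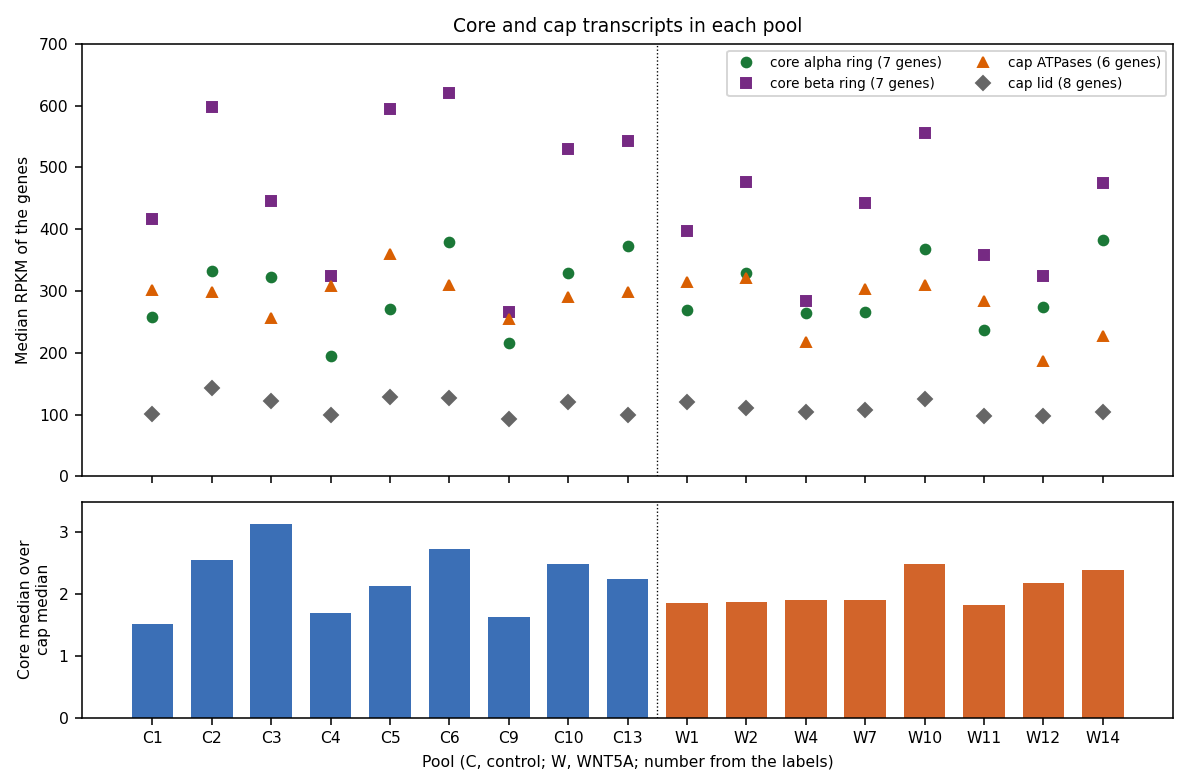
Median RPKM of the alpha ring, beta ring, ATPase and lid genes in each pool (upper panel), and the median of the 14 core genes over that of the 17 cap genes (bars, lower panel; C, control; W, WNT5A). The beta median is above the alpha median in 17 of 17 pools, and the bars run from 1.53 to 3.13 in controls and 1.82 to 2.48 in WNT5A pools.

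Among the regulators, PSME1 was the most abundant and PSME4 the least by mean level. PSME1 and PSME2 encode the subunits of one ring-shaped activator that interferon induces, yet PSME1 averaged 152 RPKM and PSME2 33.0, and PSME1 was higher in 17 of 17 libraries. PSME3, which forms a nuclear activator by itself, averaged 39.3 RPKM. PSMF1, an inhibitor of the core in vitro, averaged 45.0 RPKM and exceeded PSME3 in 11 of 17 libraries, so that pair could not be ordered. PSME4, an activator known for degrading acetylated histones in the mouse testis, averaged 4.95 RPKM and was at 0.0584 RPKM, from 60 reads, in control library 3. The annotated spans of PSME1 and PSME2 share 9680 bases on opposite strands, with no exon base in common, and no source used here gives the strand setting of the read counting, so reads of the pair may not be fully separated.

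PSME1 was at 136, 127, 141, 145, 156, 263, 125, 200 and 231 RPKM in control libraries 1, 2, 3, 4, 5, 6, 9, 10 and 13. It was at 154, 140, 114, 100.6, 144, 89.6, 122 and 204 RPKM in WNT5A libraries 1, 2, 4, 7, 10, 11, 12 and 14. The groups overlapped, with 4 WNT5A pools below all controls. PSME3 was at 28.5 to 50.2 RPKM in controls and 32.7 to 67.7 in WNT5A pools, the highest WNT5A values being 67.7, 55.8 and 47.8 in libraries 14, 12 and 4. PSME2 ranged from 21.8 to 42.0 RPKM in controls and 22.2 to 48.7 in WNT5A pools, with medians of 32.0 and 33.6. PSMF1 had medians of 42.7 and 42.6 RPKM, and ranged from 22.6 to 111 in controls and 23.7 to 49.6 in WNT5A pools. PSME4 had medians of 4.39 and 5.09 RPKM, with its highest value, 12.6, in WNT5A library 12. For these 4 regulators too the groups overlapped.

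PSME1 and PSME2 together were 3.69 to 7.30 times PSME3 in controls and 2.79 to 5.58 times in WNT5A pools. The log2 ratio averaged 2.47 ± 0.296 without and 1.97 ± 0.375 with WNT5A (SD, n = 9 and 8), a difference of -0.50 (two-sided exact permutation test over 24310 splits, p = 0.00806, adjusted p = 0.0484 over 6 ratios). The ranges overlapped. The difference was -0.30 without WNT5A libraries 4, 12 and 14 (exact permutation, adjusted p = 0.316), -0.62 without control libraries 2, 3 and 6, where the call held (exact permutation, adjusted p = 0.0280), and -0.41 without all 6 (exact permutation, adjusted p = 0.208). When 1 library was left out the call held only without control library 3, WNT5A library 1 or WNT5A library 2, and was lost without any of the other 14 (difference -0.58 to -0.43). PSME4 over PSME3 had medians of 12.7% and 12.6% (exact permutation, adjusted p = 0.559).

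The assembly chaperones were spread over a wide range. PSMG1 and PSMG2, which pair to start the alpha ring, averaged 142 and 194 RPKM, and PSMG2 was higher in 16 of 17 libraries. PSMG3 and PSMG4, a second pair, averaged 160 and 94.1 RPKM. The base chaperones PSMD9, PSMD10 and PSMD5 averaged 104, 38.3 and 23.4 RPKM. PSMD5 was the lowest chaperone by mean, at 12.3 to 30.2 RPKM in controls and 18.1 to 29.9 in WNT5A pools. Of the genes that match by name only, PSME3IP1, a partner of PSME3, averaged 76.6 RPKM, and PSMC3IP, a meiotic recombination factor, averaged 37.0.

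WNT5A and control pools were then compared gene by gene. In limma, 0 of the 49 genes were past the adjusted threshold of 0.05, where 0.00805% of all tested genes were. At an unadjusted p under 0.05, 0 of 49 were higher with WNT5A, against 5.73% of all tested genes, and 2 of 49 were lower, PSMD4 and PSMD9, against 1.62%. Those 2 became 6 without control library 9 or WNT5A library 10, and 4 without control library 4 or WNT5A library 14. They became 1 without control library 2, 5 or 6 or WNT5A library 11. There were 0 without control library 3 or WNT5A library 4 or 12. The background moved as well: of 12415 tested genes, 913 had an unadjusted p under 0.05 in either direction with all libraries. That count was 1303 without control library 9, 999 without WNT5A library 10, 1100 without control library 4 and 679 without WNT5A library 14. It was 766 without control library 3, 651 without WNT5A library 4 and 587 without WNT5A library 12. Fitted values above 0 numbered 17 of 49, where 62.3% of tested genes were above 0, and 32 of 49 lay below 0, against 37.7%, and those above 0 were 10 without WNT5A library 14. No gene had groups that did not overlap, against 0.0161% of tested genes. No member had an FDR under 0.05 in the authors' deposited table, against 1.01% of all genes, and 3 of 49 had a p-value under 0.05 in the authors' deposited table, against 8.19% of all genes.

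The median log2 change was -0.10 over the 49 genes and 0.11 over all tested genes. After quantile normalization it was -0.01 for both, and 24 of 49 genes were then above 0. Without the 6 libraries that stood apart, the medians were 0.01 and 0.03. By role, 0 of 7 beta genes had a value above 0 (median -0.18), which became 2 of 7 after quantile normalization and 4 of 7 without those 6 libraries. The alpha genes had a median of -0.02 with 3 of 7 above 0, the ATPases -0.14 with 1 of 6, the lid 0.02 with 5 of 8 and the chaperones -0.17 with 2 of 7. The ATPase median was 0.01 after quantile normalization, and the alpha median 0.12. The regulators had a median of 0.03 and the 4 variants 0.42, which was 0.0018 without control libraries 2, 3 and 6, 0.0053 without the 6 libraries and -0.0039 after quantile normalization. The regulators were at -0.08 without the 6 libraries.

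**Figure D4:**
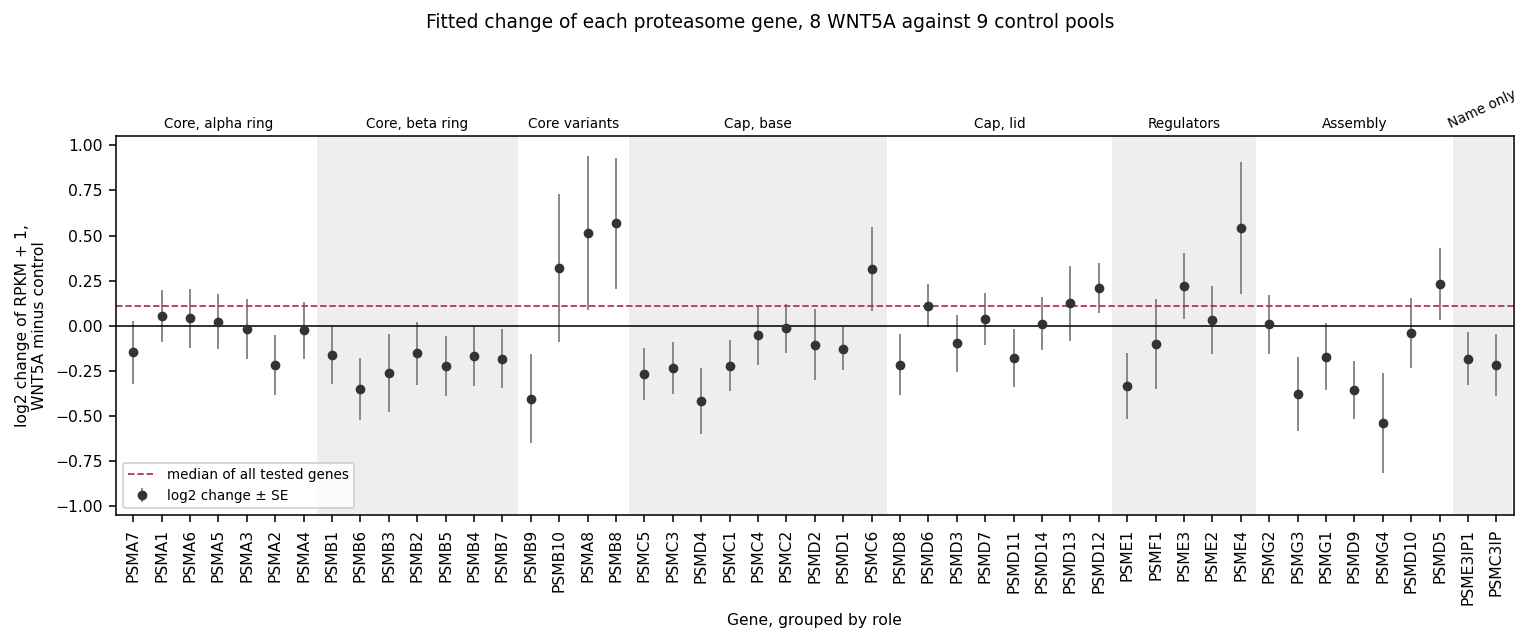
Fitted log2 change of RPKM + 1, WNT5A minus control, for each of the 49 genes by role, with bars of 1 SE and a dashed line at the median of all tested genes, 0.11. Values run from -0.54 for PSMG4 to 0.57 for PSMB8, and none passed the adjusted threshold.

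PSMD4, the ubiquitin receptor of the base, had the smallest p. Its controls ranged from 228 to 422 RPKM with a median of 348, and its WNT5A pools from 135 to 351 with a median of 292. The lowest WNT5A values were 135 in library 12 and 183 in library 4, both below all controls, and the other 6 pools lay inside the control range. The means were 349 ± 58.1 (SD, n = 9) and 270 ± 78.3 RPKM (SD, n = 8), and limma gave a log2 difference of -0.42 ± 0.18 (SE, adjusted p = 0.676). The value was -0.11 without WNT5A libraries 4, 12 and 14.

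PSMD9, a base chaperone, had means of 117 ± 30.4 RPKM without and 89.5 ± 13.9 RPKM with WNT5A (SD, n = 9 and 8), and limma gave -0.36 ± 0.16 on the log2 scale (SE, adjusted p = 0.676). Its highest value, 174 RPKM, was in control library 2, and without control libraries 2, 3 and 6 the change was -0.14. PSMB6 had means of 599 ± 139 RPKM without and 467 ± 100.8 RPKM with WNT5A (SD, n = 9 and 8), and a limma log2 difference of -0.35 ± 0.17 (SE, adjusted p = 0.676), with WNT5A libraries 4 and 12 at 312 and 329 RPKM. PSMG4, a chaperone with a short message, had the most negative value, -0.54 ± 0.28 (SE, limma adjusted p = 0.681), with means of 113 ± 56.0 RPKM without and 72.9 ± 28.0 RPKM with WNT5A (SD, n = 9 and 8). Controls of PSMG4 ran from 34.8 to 229 RPKM, which covers all 8 WNT5A pools.

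The other genes among the 10 with the smallest p were also lower on average. These were PSMC5 at -0.27 ± 0.14, PSMG3 at -0.38 ± 0.20, PSME1 at -0.33 ± 0.18, PSMB9 at -0.40 ± 0.24, PSMC3 at -0.23 ± 0.15 and PSMC1 at -0.22 ± 0.14 (log2 change ± SE; limma adjusted p from 0.686 to 0.721). In each of them the groups overlapped. Without the 6 libraries PSMC5, PSMB9 and PSMC3 were at 0.020, 0.033 and 0.030, above 0, and PSMC3 was at 0.0046 without WNT5A libraries 4, 12 and 14. The most positive values were those of low genes, 0.57 ± 0.36 for PSMB8 (limma adjusted p = 0.721) and 0.54 ± 0.37 for PSME4 (limma adjusted p = 0.726). PSMB8 was 0.16 and PSME4 -0.08 without the 6 libraries that stood apart. PSME3 was 0.22 ± 0.18 (SE, limma adjusted p = 0.758), and -0.04 without WNT5A libraries 4, 12 and 14.

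Within the WNT5A group, libraries 4, 12 and 14 differed from the other 5 in the makeup of the proteasome messages. All 7 beta genes averaged lower in them, at a median of 0.840 of the other 5, and so did 5 of 6 ATPases, at 0.7102. The beta genes were not alike in the 3: 0 of 7 were above their 17-library mean in libraries 4 and 12 but 6 of 7 in library 14, where PSMB1, at 693 RPKM, was the highest of the WNT5A pools. Alpha genes were lower in 2 of 7, at a median of 1.13. PSMD4 averaged 185 RPKM against 320, and PSMG3 93.9 against 167. PSMC6 ran the other way at 77.8 against 44.0 RPKM, as did PSME3 at 57.1 against 34.4 and PSME4 at 9.01 against 4.18. In control libraries 2, 3 and 6 all 14 core genes averaged higher than in the other 6 controls, at a median of 1.28 times, and PSMA7 was at 1010 against 699 RPKM. The other 6 controls split, with 11, 13 and 14 of the 14 core genes above their 17-library means in libraries 5, 10 and 13 and 2, 0 and 0 in libraries 1, 4 and 9. PSMA7 in control library 3, at 775 RPKM, was below libraries 5, 10 and 13, at 907, 829 and 839. The same counts were not taken over all genes, so a shift of a whole library cannot be told from one of these genes. The parts of depth, of genes detected and of library scaling in these differences were not tested.

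**Figure D5:**
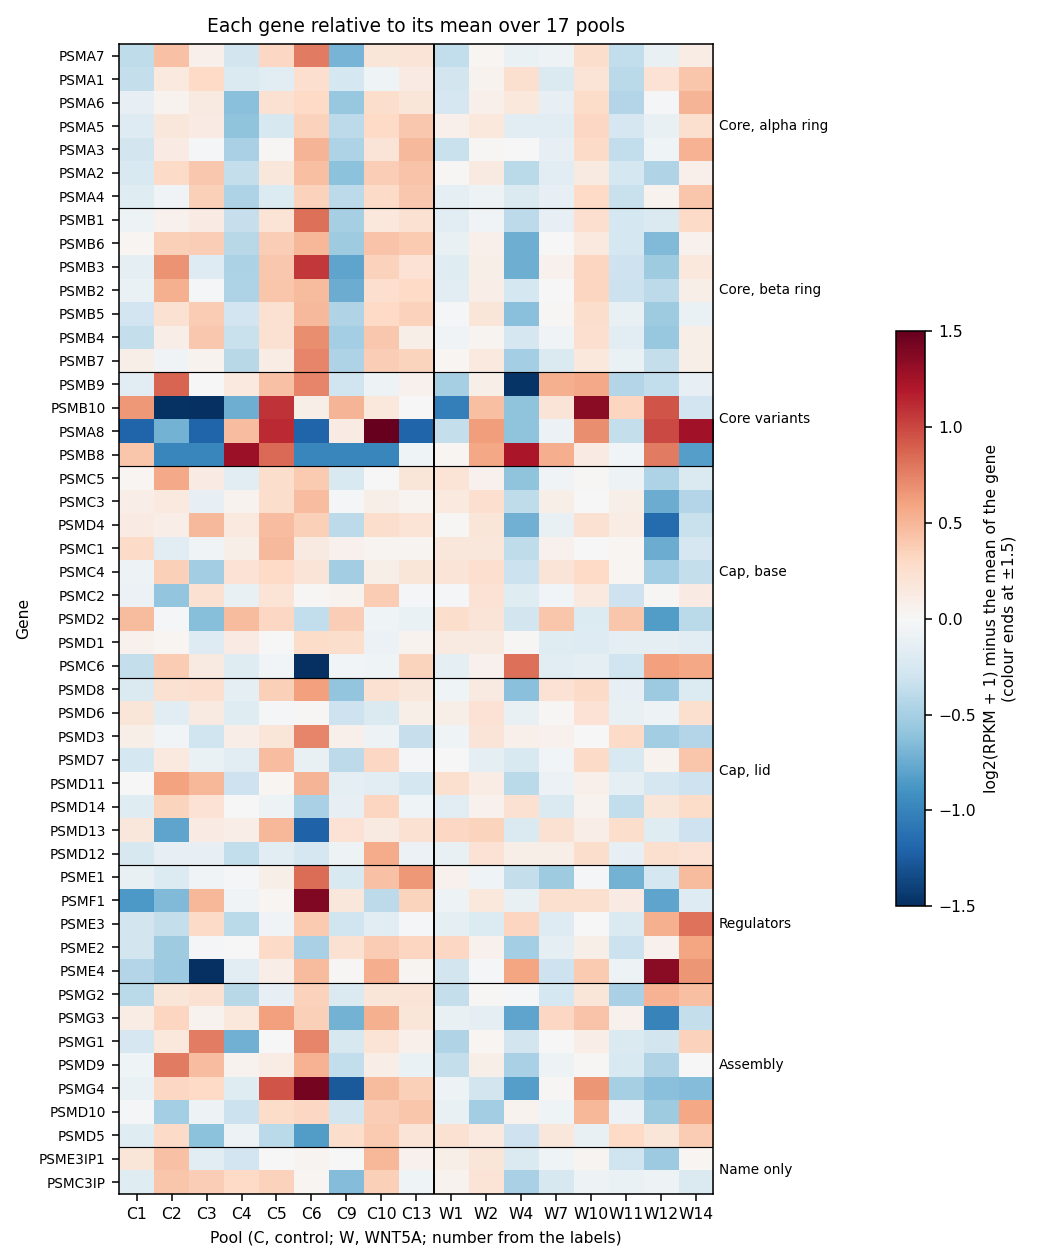
Level of each gene in each library relative to that gene's mean over the 17 libraries, on a log2 scale, with genes ordered by role and libraries by group. Core genes are above their means as a block in control libraries 6 and 13 and WNT5A library 10, and below in control libraries 4 and 9 and WNT5A library 11.

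Of 34 partners of the proteasome (ubiquitin genes, shuttles, bound enzymes, further subunits and transcription factors), 33 were tested, and DDI2 was not analysed here. None passed the adjusted threshold in limma, 2 had an unadjusted p under 0.05, 18 lay above 0 and 15 below, with a median of 0.06. On the log2 scale SEM1 differed by -0.68 ± 0.30 (SE, limma adjusted p = 0.676) and UBB, a polyubiquitin gene, by -0.33 ± 0.16 (SE, limma adjusted p = 0.676). NFE2L1, the transcription factor that raises proteasome genes when the particle is inhibited, was at 5.37 to 13.97 RPKM in controls and 8.23 to 13.5 in WNT5A pools, with a log2 difference of 0.14 (limma adjusted p = 0.878).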

How the data were processed

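The kit was TruSeq stranded mRNA, per the labels' protocols. The submitters' processing notes list FastQC, HISAT2, featureCounts, edgeR and assembly ARS-UCD1.2; versions, annotation release and strand setting were not given in the sources used here. RPKM for each gene and library were deposited by the authors. Per the file headers, further columns hold the authors' log2 fold change, mean log2 CPM, likelihood ratio (a score), p-value and FDR. No per-sample column was left unused.

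RPKM times gene length gave whole reads for 100% of values (tolerance 0.001), 34.0 to 200 M per library. RPKM times length in kilobases summed to 0.946 M in control library 9, the lowest, and 1.145 M in control library 6, the highest. The values thus carry a library scaling beyond the listed reads. With it removed, 17 of 49 genes were above 0 (63.5% of all tested genes), and the median log2 change over the 49 was -0.09. A floor of 3 reads on a 1 kilobase gene was 0.0155 to 0.0841 RPKM, and covers counting error only.

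Since RPKM are not counts, limma 3.58.1 in R 4.3.3 (trend and robust options, two-sided) was fitted on log2(RPKM + 1) over the 12415 genes that reached 0.5 RPKM in 8 or more libraries. Benjamini-Hochberg adjustment ran over all of them. All 49 genes passed this filter. Changes on this scale understate those of low genes. Within-library ratios (0.1 RPKM added) were tested by exact permutation (two-sided, 24310 splits), adjusted over 6 ratios. The fit was tested on simulated data. Symbols were matched to RefSeq for 49 of 49 genes. Scripts used Python 3.11.15.

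Genes named in full were any past the threshold (none were), the 10 of smallest p, the 5 highest and 5 lowest by mean level, the variants with their partners, the regulators and the 3 most variable. Other genes are given by role. Of the pathway partners, those with the smallest p and NFE2L1 were named, and not every such gene is reported here. The members and gene lists were chosen with earlier results of these data known, and the sets of libraries left out were chosen after seeing the data. No sequence was used here, and of the annotated positions only the overlap of neighbouring genes.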

Additional observations from a re-analysis of the deposited data

Results flagged for a closer look

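Of 66 groups of values examined, 5 held a library whose gap to its nearest neighbour was large against the range of its group, where chance gives about 1 in 20 groups. PSMB1 was 1007 RPKM in control library 6, against 402 to 666 in the other controls. PSMF1 was 111 RPKM in that library, against 22.6 to 59.6. PSME4 was 12.6 RPKM in WNT5A library 12, against 3.29 to 7.44 in the other WNT5A pools. PSMG4 was 134 RPKM in WNT5A library 10, against 47.2 to 85.2. The log2 ratio of PSME4 to PSME3 was -8.21 in control library 3, against -3.42 to -2.30 in the other controls.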

How the results depend on the processing

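No proteasome gene passed the adjusted threshold under any alternative run. The 2 lower genes at an unadjusted p under 0.05 became 0 under quantile normalization, the replicate block, eBayes without its trend and robust options and each of the 3 settings without libraries that stood apart, and 0 to 6 when 1 library was left out. The higher ones were 1 under the block and 0 to 1 with 1 library out. Values above 0 then numbered 10 to 21 of 49, where 58.6% to 63.8% of all tested genes were above 0. They were 24 of 49 under quantile normalization (48.4% of all tested genes), 22 under the block (59.1%) and 25 without the 6 libraries (55.7%). In the main fit 913 of 12415 tested genes had an unadjusted p under 0.05 in either direction. There were 314 under the block, 806 under quantile normalization, 911 without the trend and robust options and 587 to 1303 with 1 library out. The count was 341 without WNT5A libraries 4, 12 and 14, 557 without control libraries 2, 3 and 6 and 328 without all 6. The block gives each number its own term, so its changes rest on the 4 numbers found in both groups, 1, 2, 4 and 10. WNT5A library 4 and control library 2, which stood apart, are among those pools. The median of the 4 variants was 1.21 with a pseudocount of 0.1 and -0.40 under the strict filter, which leaves 1 of them. The ATPase median was 0.00756 under quantile normalization and -0.00253 without WNT5A libraries 4, 12 and 14.

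Whether numbers shared by the groups pair the pools is not in the labels. Correlations of deviations were 0.216, 0.0571, 0.0217 and 0.109 for numbers 1, 2, 4 and 10, not all over 0.1, so pools were not treated as paired. Pools 1 and 10 correlated best with their own number in both groups, pool 4 in the WNT5A group alone and pool 2 in neither, a hint from the data. Under the replicate block the difference in PSME1 and PSME2 over PSME3 was -0.39 (exact sign flips over the pairs, adjusted p = 0.750). The 4 pairs allow no p below 0.125 and so no call. PSMD5 was -0.12 and PSMF1 0.55 under the block. On ranks over all libraries, the ratio of PSME1 and PSME2 to PSME3 differed by -5.90 mean ranks (exact permutation, adjusted p = 0.0913). On the log2 scale, without ranks, it differed by -0.30 without the 3 WNT5A libraries and by -0.41 without the 6. With 1 library out the log2 difference was -0.58 to -0.43.

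Of the 49 genes, 9 changed sign under quantile normalization, 11 under the block, 11 without WNT5A libraries 4, 12 and 14, 9 without control libraries 2, 3 and 6, 24 without the 6 libraries and 0 to 7 with 1 library out. Those among the genes named in full follow, with NFE2L1 and the ratios, and the cause was not tested. Under quantile normalization PSMB2 was 0.013 and PSMB10 -0.065. Without WNT5A libraries 4, 12 and 14 PSMC3 was 0.00464, PSME3 -0.043, PSMF1 0.086 and PSMB9 over PSMB6 0.054. Without control libraries 2, 3 and 6 PSMA7 was 0.035, PSMB10 -0.11, PSME2 -0.14, PSMF1 0.078, NFE2L1 -0.080, PSMB10 over PSMB7 -0.10 and PSME4 over PSME3 -0.022. Without the 6 libraries PSMC5 was 0.020, PSMB9 0.033, PSMC3 0.030, PSMA7 0.0099, PSMB3 0.070, PSMB2 0.040, PSMB5 0.092, PSME4 -0.078, PSMB10 -0.023, PSMA8 -0.051, PSME2 -0.16, PSMF1 0.27, NFE2L1 -0.049, PSMB9 over PSMB6 0.11, PSMB10 over PSMB7 -0.090 and PSME4 over PSME3 -0.15. With 1 library out PSME2 was -0.051 to 0.11, PSMF1 -0.22 to 0.066 and PSMB9 over PSMB6 -0.15 to 0.044.

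All libraries in which PSMB8, PSMA8 or PSMB10 was at 0 were controls with 125 to 158 M reads. In them, 3 reads would give 0.0173 to 0.0219 RPKM for PSMB8, 0.0254 to 0.0304 for PSMA8 and 0.0173 for PSMB10. These libraries include controls 2, 3 and 6, which had reads for 10055 to 11268 genes, and others with reads for 13587 to 15178. The part of genes detected in the zeros was not tested. The promoter search that had been planned was not run.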

Other observations

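Proteasome messages varied less between pools than the transcriptome as a whole. The median SD of log2 values was 0.358 in controls and 0.299 in WNT5A pools over the 49 genes, against 0.691 and 0.453 over all tested genes. Among genes averaging at least 50 RPKM it was 0.356 and 0.273 for 39 proteasome genes and 0.410 and 0.345 for 2214 tested genes. This is a description, with no test. The steadiest were PSMD1, PSMD6 and PSMD12 of the cap, with a mean SD of 0.146, 0.162 and 0.208, and the most variable were PSMA8, PSMB10 and PSMB8 at 0.911, 0.866 and 0.768.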
